A study of Mus musculus with 2 samples.

Results

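The 10 genes described here serve the zona glomerulosa, the outer layer of the adrenal cortex: the angiotensin receptor genes Agtr1a and Agtr1b, the potassium channel genes Kcnk3, Kcnk9 and Kcnj5, the calcium channel gene Cacna1h, the calcium sensor gene Vsnl1, the secreted ligand genes Wnt4 and Shh, and the adaptor gene Dab2. They were taken by name from the annotated gene names of both deposited tables, and they are 10 of 17707 annotated genes that had reads. The assay was long-read RNA sequencing, in which 1 read can span a whole transcript, so that splicing is read along single molecules. The samples were adrenal glands of female B6CASTF1/J mice, a first-generation hybrid strain, at an age of 18 to 20 months. There was 1 group of 2 libraries, labelled as biological replicates 1 and 2, each made from 1 µg of total RNA with spike-in RNA added. The sample fields name a different animal number for each library and the same donor entry for both, and no source used here states the study's question. With no second condition, replicate 1 is set against replicate 2, and every p-value below compares these libraries. Those of the binomial and Fisher's exact tests cover counting error only. Those of edgeR's exact test add a variation estimated from the same libraries.

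Cells of the zona glomerulosa make aldosterone, the hormone that retains sodium and drives out potassium. Potassium channels of the Kcnk family hold their membrane potential negative. Angiotensin II, acting through the type 1 receptor, and a raised potassium concentration both depolarise the membrane, open T-type calcium channels and raise cellular calcium, which turns on the aldosterone synthase gene Cyp11b2. Wnt4 marks and maintains the zone through beta-catenin, and Shh is the signal by which these cells address progenitors in the overlying capsule.

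The tables held 1412947 reads on annotated genes in replicate 1 and 933963 in replicate 2, so that 1 read equals 0.708 and 1.07 CPM, counts per 1000000 gene reads. Each read counts once whatever its length, so CPM was not divided by gene length. The labelled tissue was checked on Cyp11b2, with 2361 reads in replicate 1 and 1060 in replicate 2, and on Hsd3b6, the steroid dehydrogenase gene of the mouse zona glomerulosa, with 92 and 46 reads. The span of Cyp11b2 overlaps the near-identical Cyp11b1 in the annotation, so its count is uncertain. Other tissue was also read, as all 9 adipocyte markers were detected in both libraries and skeletal muscle markers summed to 1105 reads in replicate 1 and 3 in replicate 2. Levels are of whole glands, in which fewer cells of a type and less RNA per cell cannot be told apart.

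All 10 genes were detected in both libraries. Kcnk3 had 1457 CPM in replicate 1 (95% Poisson interval 1394 to 1521) and 1493 CPM in replicate 2 (1415 to 1573), a mean of 1475 ± 25.5 CPM (SD, n = 2), which ranks it at 52 among all genes with reads. Wnt4 followed with 532 CPM in replicate 1 (494 to 571) and 279 CPM in replicate 2 (247 to 315), at rank 343. These were the 2 genes of the group read at depth.

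Dab2 had 79.3 CPM in replicate 1 and 87.8 in replicate 2. Cacna1h had 43.2 and 37.5 CPM, and Agtr1a had 33.3 and 32.1 CPM, in replicates 1 and 2. The intervals of Cacna1h and Agtr1a overlapped in both libraries, so their order was not resolved, whereas Dab2 stood above both. Vsnl1 had 16.3 CPM in replicate 1 and 10.7 CPM in replicate 2, under Agtr1a in both.

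The other genes were near the detection limit. Kcnk9 had 4 reads in replicate 1 and 10 in replicate 2. Shh had 6 and 4 reads, and Agtr1b had 5 and 2 reads. Kcnj5 had 1 read in each library, so nothing of its level beyond presence can be stated. In order of mean level, Kcnk9, Shh, Agtr1b and Kcnj5 each had an interval that overlapped the next one's in both libraries. Kcnk3 alone took 67.1% of the 3068 reads on the 10 genes in replicate 1 and 76.2% of the 1829 reads in replicate 2.

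**Figure D1:**
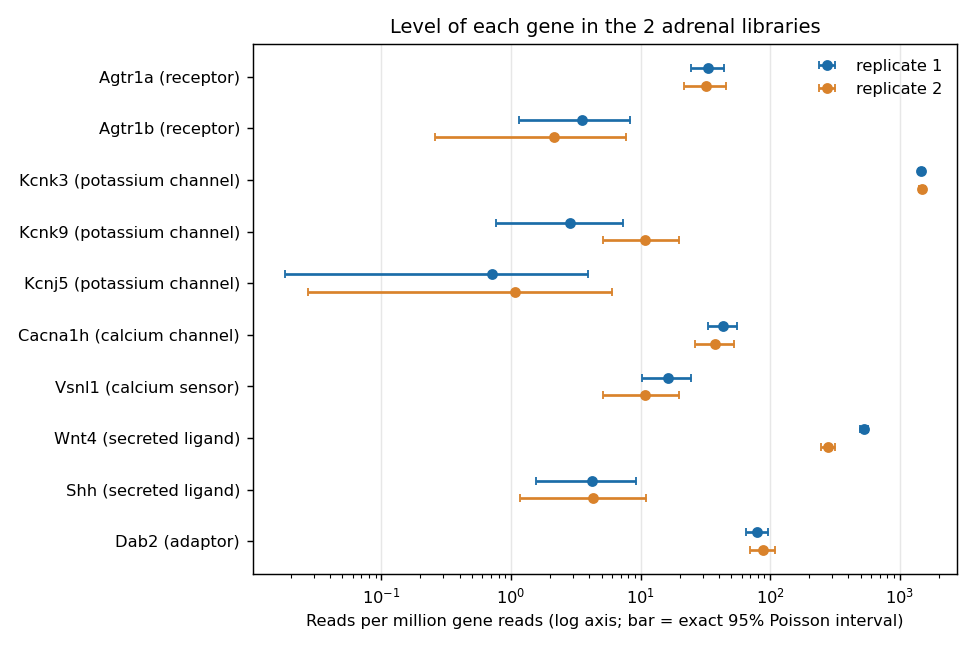
CPM of each of the 10 genes (log axis), replicate 1 above replicate 2, with exact 95% Poisson intervals. Kcnk3 sits near 1475 CPM in both libraries, Wnt4 is the 1 gene whose intervals separate the libraries by a wide gap, and Kcnj5 rests on 1 read per library.

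Of the 10 genes, 8 had the 10 reads over both libraries required for a test, and Agtr1b and Kcnj5 did not. An exact two-sided binomial test of replicate 1 against replicate 2, with Benjamini-Hochberg adjustment over all 11068 genes tested, called 1 of the 8, Wnt4. The background was 12.4% of all tested genes called in either direction and 6.21% called higher in replicate 1 (6.2% called higher in replicate 2), so 1 of 8 is near the background. Wnt4 had 751 reads in replicate 1 and 261 in replicate 2, a ratio of 1.95 after scaling (95% interval 1.69 to 2.25, adjusted exact binomial p = 5.47e-20). In edgeR's exact test, which adds a common coefficient of variation of 21.5% between libraries, Wnt4 had an unadjusted p of 0.0364 and an adjusted p of 1, while 0.244% of genes passed. That variation was estimated from these same libraries taken as replicates, so differences between them also widen the spread they are tested against. Failing edgeR's test therefore does not show that a gene was alike in the libraries, here or below. No other member passed the binomial test, none passed edgeR's, and 1 of them, Wnt4, had an unadjusted p under 0.05 in edgeR.

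The ratio of Kcnk3 was 0.998 (0.932 to 1.07), the narrowest interval of the group. The ratios were 1.06 for Agtr1a (0.656 to 1.73), 1.18 for Cacna1h (0.765 to 1.84) and 0.923 for Dab2 (0.688 to 1.24). None of these intervals shows that the libraries were alike, and those of Vsnl1 (1.55, 0.712 to 3.66) and Shh (1.01, 0.240 to 4.89) were wider still. Kcnk9 had a ratio of 0.270 (0.0619 to 0.937) with an exact binomial p of 0.0263 and an adjusted p of 0.141, and thus did not pass. Without genomic-class models the log2 ratio of Kcnk9 was 0.40, against -1.89 with them, and that of Agtr1a was 0.71, against 0.08. The Kcnk9 value then rests on 2 reads in replicate 1 and 1 in replicate 2. For Agtr1a this setting removes 11 single-exon reads of replicate 2. The 14 single-exon reads of replicate 1 are in another class and stay. With the libraries scaled by their ERCC spike-in reads, the median of all genes moved by 0.33 on the log2 scale, and Kcnk3 then stood at 0.32 (adjusted exact binomial p = 2.59e-09), about the size of that shift.

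Several marker lists moved between the same libraries, and their part in the Wnt4 result was not tested. The counts below are of the binomial test, in which 6.21% of all tested genes passed as higher in replicate 1 and 6.2% as higher in replicate 2. In edgeR's exact test, only X-zone and skeletal muscle genes of the marker lists passed, among them Myh1 (adjusted p = 3.01e-05). The lowest adjusted p of an adipocyte marker in edgeR's exact test was 0.171. Adipocyte markers, with 7 of 9 tested genes higher in replicate 1 and none higher in replicate 2, made up 0.943% of replicate 1 and 0.620% of replicate 2 by gene reads. Chromaffin markers of the adrenal medulla, with 6 of 14 higher in replicate 1, made up 1.37% and 1.08%. X-zone markers, of the innermost mouse cortex, made up 0.0679% in replicate 1 and 0.303% in replicate 2, with 1 of 4 higher in replicate 1 and 2 of 4 higher in replicate 2. The 6 zona fasciculata markers split into 2 that were higher in replicate 1 and 4 that were higher in the other library. All 6 tested skeletal muscle markers were higher in replicate 1, and Acta1, Ckm, Myh1, Myh4 and Tnnt3 were at 0 in replicate 2. Capsule and stroma markers were level, at 0.161% in replicate 1 and 0.165% in replicate 2, with 1 of 11 higher in replicate 2. Nerve and glia markers had 1 of 7 higher in replicate 1, smooth muscle and endothelium had 3 of 9 higher there and 1 lower, and macrophage markers had 2 of 9 lower there. Sox10 of the nerve and glia list had 0 reads in both libraries, and the macrophage gene Cd163 had 0 in replicate 1.

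**Figure D2:**
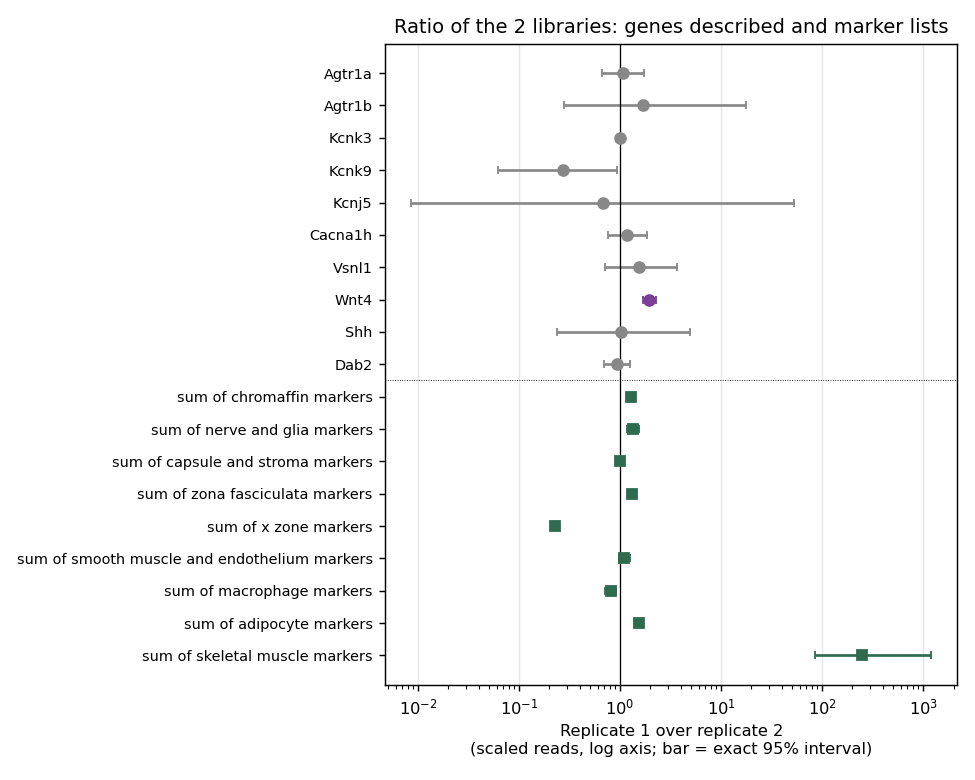
Ratio of replicate 1 over replicate 2 after scaling (log axis), with exact 95% intervals, for the 10 genes (circles, Wnt4 in purple as the 1 gene called) and for the summed reads of each marker list (squares). Wnt4 lies at 1.95 and Kcnk3 at 0.998, while the skeletal muscle sum lies at 249 and the X-zone sum at 0.229.

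Genes that act with the receptors and channels in aldosterone production were read as a list of 36, of which 33 were tested. Of these, 5 were higher in replicate 1, 2 were higher in replicate 2 and 26 did not pass, with a median log2 ratio of -0.03 against -0.0046 over all tested genes. Over all tested genes 6.21% passed as higher in replicate 1 and 6.2% as higher in replicate 2, and none of the 7 genes passed in edgeR's exact test (adjusted p from 0.852 to 1). Cyp11b2 had 1671 CPM in replicate 1 and 1135 CPM in replicate 2, a ratio of 1.51 (1.40 to 1.62, adjusted exact binomial p = 2.48e-27). Its count is uncertain because its span overlaps that of Cyp11b1, which had a ratio of 1.54 (1.51 to 1.57). The part of reads shared by the pair was not tested. Nr4a1, an angiotensin-induced transcription factor gene that acts on Cyp11b2, was 1.39-fold higher in replicate 1. Atp1b1, a sodium pump subunit gene, and Mef2c, a calcium-regulated transcription factor gene, were also higher in replicate 1, at 1.48-fold and 4.06-fold. Clcn2, the chloride channel gene mutated in familial hyperaldosteronism in humans, and Itpr1, an inositol trisphosphate receptor gene, were lower in replicate 1, with ratios of 0.446 and 0.480.

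Reads were next followed along each gene. In these tables a read is assigned to an annotated transcript, to a new model that is part of an annotated splice chain (an incomplete splice match), to a new combination of known splice sites, to a model with a new splice site, or to the genomic class. Annotated transcripts took 65.9% of the reads on the 10 genes in replicate 1 and 55.0% in replicate 2, and 77.2% and 73.2% of all gene reads. Models that hold a complete annotated coding sequence were counted too, and over the 6265 coding genes read at least 20 times in both libraries their median share was 82.6% in replicate 1 and 78.4% in replicate 2. Vsnl1 and Wnt4 reads lay mostly on whole annotated splice chains, those of Kcnk3 and Agtr1a in part, and those of Cacna1h and Dab2 mostly on pieces. An annotated model carries the annotated ends, so where the reads given to it began and ended is not shown.

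**Figure D3:**
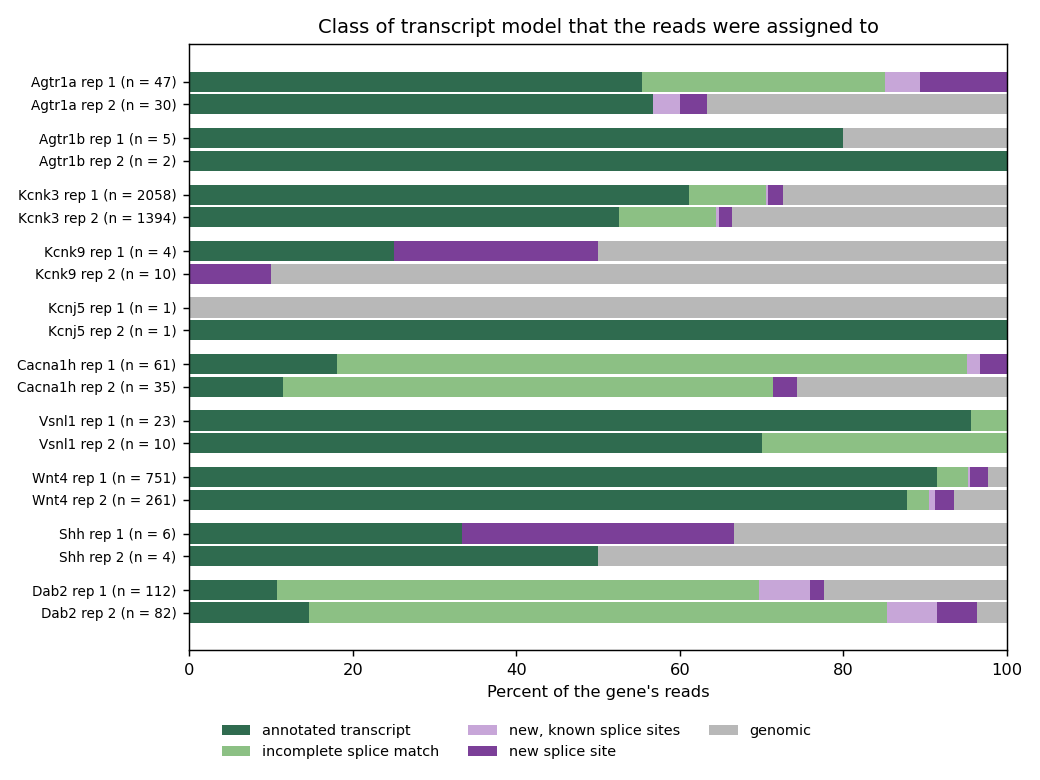
Percent of each gene's reads by class of transcript model, replicate 1 above replicate 2, with the number of reads beside each bar. Annotated transcripts fill most of the Wnt4 and Vsnl1 bars, incomplete splice matches fill most of Cacna1h and Dab2, and the genomic class takes 27.4% and 33.6% of Kcnk3.

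Agtr1a and Agtr1b encode the type 1 angiotensin receptor, which rodents carry as a pair of genes. Agtr1a lies on chromosome 13 (mm10, chr13:30336441-30382867, plus strand) and Agtr1b on chromosome 3 (chr3:20314473-20367177, minus strand), and in both the last exon holds the whole coding sequence of 1080 bases. The coding sequences are 90.8% identical, with 99 mismatches and a longest identical run of 66 bases. Their least alike stretch of 60 bases, coding bases 964 to 1023 from GENCODE M21 on GRCm38, is shown because it tells the pair apart, with the 13 mismatches in capitals.
Agtr1a: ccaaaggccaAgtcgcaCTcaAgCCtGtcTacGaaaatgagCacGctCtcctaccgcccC
Agtr1b: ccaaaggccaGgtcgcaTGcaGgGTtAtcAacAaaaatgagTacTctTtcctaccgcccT

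A read over this exon thus crosses many differing bases, although how the authors' counting treated near-identical copies is not given. Agtr1a was read 47 times in replicate 1 and 30 times in replicate 2, and Agtr1b 5 and 2 times. Agtr1a-201, the 3-exon transcript, took 26 reads in replicate 1 and 16 in replicate 2, or 55.3% (95% Clopper-Pearson interval 40.1 to 69.8) and 53.3% (34.3 to 71.7). Single-exon models took 14 reads in replicate 1 and 11 in replicate 2, while others lay on other splice chains. In replicate 1, these 14 reads lay on a model of the whole last exon, and in replicate 2, the 11 reads lay on a model that starts inside it and holds 901 of the 1080 coding bases. Models with the complete coding sequence therefore took 42 of 47 reads in replicate 1 (89.4%, 76.9 to 96.5) and 18 of 30 in replicate 2 (60%, 40.6 to 77.3). The start of the replicate 2 model, base 30381133, is also the annotated end of Agtr1a-204. The gap between the libraries thus rests on the start given to 1 model in each, which the intervals do not cover.

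Splicing upstream of the Agtr1a coding exon varied. From the donor of exon 2, 27 of 33 reads in replicate 1 and 17 of 19 in replicate 2 went to the coding exon. Another 5 reads in replicate 1 and 1 in replicate 2 went to an exon in intron 2 that the annotation of Agtr1a lacks, at chr13:30370386-30370716 in the models that continue past it, a length of 331 bases. It lies within the span of Gm48161, an annotated sense-intronic gene that had 0 reads. Models that began in exon 1 and ended inside the gene's introns took 5 of 33 reads in replicate 1 and 0 of 19 in replicate 2, which allows a share of up to 15.8%. Agtr1b was read as Agtr1b-201 in 4 of 5 reads in replicate 1 and in both reads of replicate 2.

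Kcnk3 and Kcnk9 encode tandem-pore potassium channels that set the resting potential of glomerulosa cells, and in mice their loss raises aldosterone. Kcnk3 lies on chromosome 5 (chr5:30588170-30625271, plus strand) with 2 coding exons, 283 coding bases in exon 1 and 947 in exon 2. The junction between them is shown because each read that carries it is a spliced molecule that reaches the 5′ exon, with exon 2 in capitals (chr5:30588170-30588599 joined to chr5:30621891-30625271, GENCODE M21).
Kcnk3 exon 1 to exon 2: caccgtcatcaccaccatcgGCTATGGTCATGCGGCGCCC

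This junction was in 1261 of the 2058 Kcnk3 reads in replicate 1 and in 735 of 1394 in replicate 2. Kcnk3-201 took 1257 reads in replicate 1 and 732 in replicate 2, or 61.1% (58.9 to 63.2) and 52.5% (49.9 to 55.2) of the gene's reads. The share was larger in replicate 1 by Fisher's exact test, with an adjusted p of 0.000137 over the 6223 genes tested. Kcnk3 was the 1 of 5 tested members to pass, against 2.39% of all genes tested and 2.19% with the larger share in replicate 1. The remainder was almost all single-exon, 753 reads in replicate 1 and 632 in replicate 2. Without incomplete splice matches and genomic-class models, Kcnk3-201 took 96.7% of reads in replicate 1 and 96.3% in replicate 2. The test was then not passed (adjusted Fisher's exact p = 1).

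The single-exon reads fell on a pair of models that divide exon 2 between them. In replicate 1, 190 reads lay on the upstream piece and 561 on the downstream piece, which meet at base 30623461. In replicate 2, 165 and 458 reads lay on the pieces, which meet at base 30623479. The downstream pieces, 1811 and 1793 bases long, hold no coding base, while the upstream pieces hold all 947 coding bases of exon 2. The 20 bases after the meeting point hold 4 A in replicate 1 and 16 A in replicate 2, and windows with at least 16 A make up 0.210% of all 20-base windows of the 10 reference transcripts. The meeting point of replicate 2 lies within the 20 bases after that of replicate 1. A further end of new models in replicate 1, base 30623540 with 26 reads, is also followed by 16 A in 20 bases. The part of A-rich template in these model ends was not tested.

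Reads were also assigned to the opposite strand of Kcnk3 exon 2, as gene models new to the annotation. They numbered 382 in replicate 1 and 423 in replicate 2, equal to 18.6% and 30.3% of the reads on Kcnk3 itself. All of these models were single-exon, and the deepest took 343 reads in replicate 1 (chr5:30622627-30625838) and 385 reads in replicate 2 (chr5:30622957-30625271). The single-exon sense reads, at 36.6% in replicate 1 and 45.3% in replicate 2, were likewise the larger share in replicate 2. Whether the counting used strand is not stated, so these reads cannot be told apart from Kcnk3 reads given the wrong strand, and they are not in the Kcnk3 level. Over the whole span of Dab2, new models of the opposite strand took 24 reads in replicate 1 and 32 in replicate 2. Over that of Agtr1a they took 8 and 41, of which 1 and 3 overlapped its reference exons.

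Intron 1 of Kcnk3 held exons that its annotated transcripts lack. Of the reads with the exon 1 donor, 42 of 1303 in replicate 1 (3.22%, 2.33 to 4.33) and 26 of 761 in replicate 2 (3.42%, 2.24 to 4.97) were spliced elsewhere than to exon 2, over 10 acceptors with the annotated one. One such exon ran from 30613469 to 30613691 (223 bases), with 11 reads in replicate 1 and 7 in replicate 2. The same exon with an acceptor a few bases further on, at 30613472 (220 bases), had 9 and 3 reads. Another ran from 30621367 to 30621537 (171 bases, a multiple of 3), with 10 and 4 reads, and shares its donor with the first exon of the noncoding Kcnk3-202, which starts at 30621373 and at which 0 reads started. Models from exon 1 that ended in intron 1, and so lack the coding part of exon 2, took 21 of 1305 reads in replicate 1 (1.61%, 0.999 to 2.45) and 18 of 766 in replicate 2 (2.35%, 1.40 to 3.69).

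**Figure D4:**
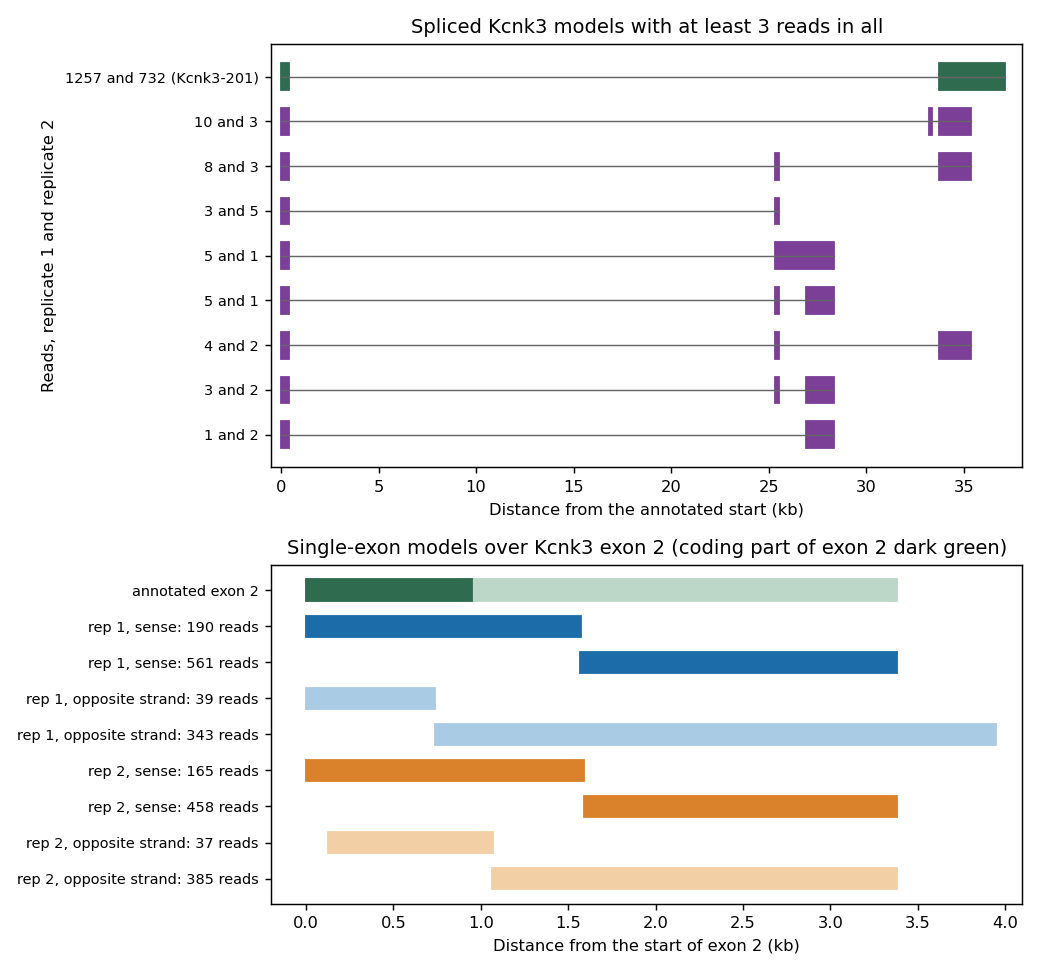
Top, spliced Kcnk3 models with at least 3 reads in all by distance from the annotated start in kb, with reads in replicates 1 and 2 at the left (Kcnk3-201 in green, new models in purple). Bottom, single-exon models over exon 2 by distance from its start in kb, replicate 1 in blue and replicate 2 in orange, pale for the opposite strand. New exons lie in the intron in both libraries, with 1 to 10 reads per model, against 1257 and 732 reads on Kcnk3-201.

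Kcnk9 (chr15:72501089-72546340, minus strand) shares 66.6% of its aligned coding bases with Kcnk3, and the longest identical run is 20 bases. Its annotated last exon is 11956 bases long. In replicate 1 the 4 reads lay on 4 models, 2 of which held the complete coding sequence. In replicate 2, 9 of the 10 reads lay on 1 single-exon model with no coding base (chr15:72506981-72510058), and none held the complete coding sequence, which allows a share of up to 30.0%. The higher Kcnk9 count of replicate 2 therefore rests on that model. Kcnj5 (chr9:32314707-32344350, minus strand), an inward rectifier gene mutated in human aldosterone-producing adenomas, had a genomic-class read in replicate 1 and a complete Kcnj5-202 read in replicate 2.

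Other channels of these families were read from lists. Of 26 further Kcnk and Kcnj genes, 19 were detected, 4 were tested and 0 passed the exact binomial test. The highest was Kcnk2, a mechanically gated potassium channel gene, with 24.8 CPM in replicate 1 and 23.6 CPM in replicate 2, far below Kcnk3. Of 17 further voltage-gated calcium channel genes, 13 were detected, 5 were tested and 0 passed. The highest was the auxiliary subunit gene Cacna2d1, with 33.3 CPM in replicate 1 and 53.5 CPM in replicate 2. The pore gene Cacna1c had 5.66 and 11.8 CPM, and of the T-type channel genes other than Cacna1h, Cacna1g had 1 read in replicate 1 and 0 in replicate 2 and Cacna1i had 0 in both.

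Cacna1h (chr17:25374285-25433783, minus strand) encodes the T-type calcium channel through which calcium enters glomerulosa cells, and activating mutations in humans cause aldosteronism. Its coding sequence of 7080 bases runs over 34 of 35 exons. No model held it whole, 0 of 61 reads in replicate 1 and 0 of 35 in replicate 2, which allows shares of up to 4.92% and 8.57%. Among 70 genes with coding sequences of at least 6000 bases the median share of complete models was also 0 in both libraries, and 46 and 41 of them had none, so this was common among genes of such length. The last exon was overlapped by 50 reads in replicate 1 and 28 in replicate 2, and coverage fell towards the 5′ end. Exon 31 had 16 reads in replicate 1 and 9 in replicate 2. Exons 3 to 16 had none in replicate 1 and between 1 and 3 in replicate 2. The longest models spanned 19 exons in replicate 1 and 27 in replicate 2.

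At the 5′ end the level rose again, since exon 1 had 11 reads in replicate 1 and 5 in replicate 2. Cacna1h-203, a 2-exon transcript of the 5′ end, is annotated as a retained-intron transcript and ends in intron 2. It took 11 of these in replicate 1 and 4 in replicate 2, and no model joined exon 1 to the last exon. No internal exon was skipped by any read at exons 18 to 28 of either library, where each junction rested on between 2 and 10 included reads in replicate 1 and between 6 and 8 in replicate 2. In replicate 2, 7 reads lay on a model of 148 bases (chr17:25374295-25374442) that ends at the annotated end of Tpsg1 on the other strand, and these cannot be told apart from Tpsg1 reads without strand. Tpsg1 itself was given 0 reads in both libraries. Without them Cacna1h would stand lower in replicate 2, and its ratio higher.

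**Figure D5:**
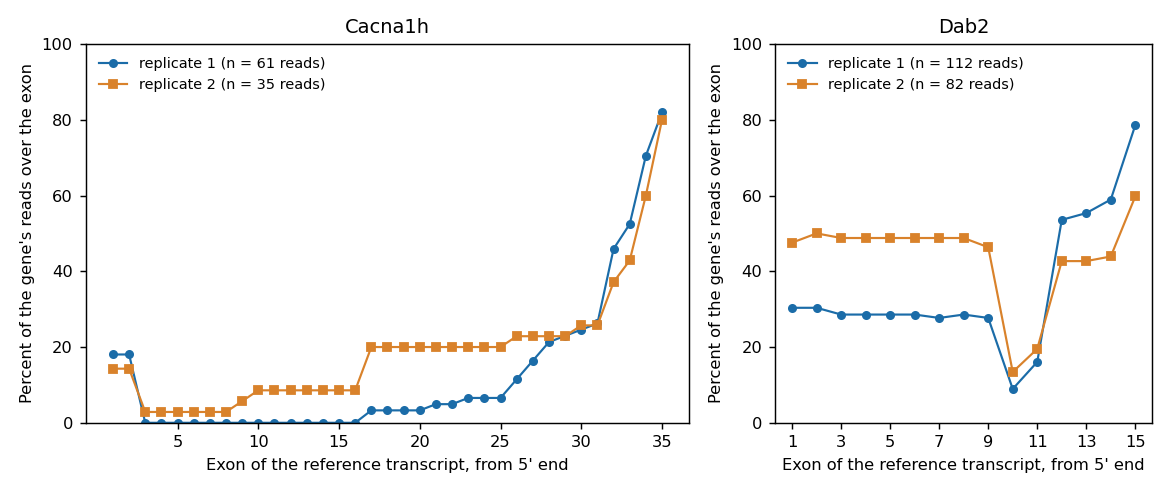
Percent of a gene's reads that overlap each exon of the reference transcript, numbered from the 5′ end, for Cacna1h and Dab2, with replicate 1 as blue circles and replicate 2 as orange squares. Cacna1h falls from about 80% at exon 35 to few or no reads at exons 3 to 16 and has separate reads at exons 1 and 2, and Dab2 has its lowest share at exon 10 in both libraries.

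Vsnl1 (chr12:11325242-11436613, minus strand) encodes a neuronal calcium sensor protein that is enriched in the human zona glomerulosa. Vsnl1-201 took 22 of 23 reads in replicate 1 (95.7%, 78.1 to 99.9) and 7 of 10 in replicate 2 (70.0%, 34.8 to 93.3). The annotation holds a further start, that of Vsnl1-202, at which 0 reads began in either library, against 22 and 7 at Vsnl1-201, which allows up to 13.6% and 42.9%. The 120 bases before each start, counted from whichever of the RefSeq and GENCODE M21 starts lies further upstream (RefSeq promoter windows, GRCm38.p6, minus strand, 5′ to 3′), are shown because 1 was used and 1 was not seen in use, with CG in capitals, at chr12:11436614-11436733 for Vsnl1-201 and chr12:11435652-11435771 for Vsnl1-202.
Vsnl1-201: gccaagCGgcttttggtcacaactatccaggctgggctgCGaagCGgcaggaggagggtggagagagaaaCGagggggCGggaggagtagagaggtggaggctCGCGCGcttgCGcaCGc
Vsnl1-202: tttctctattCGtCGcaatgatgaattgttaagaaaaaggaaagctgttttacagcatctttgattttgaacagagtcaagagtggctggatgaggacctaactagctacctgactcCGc

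The Vsnl1-201 stretch holds 10 CG pairs and is 65.8% G or C, and the Vsnl1-202 stretch holds 3 and is 40.8%. Over the whole windows of 300 bases the counts are 18 and 6 CG pairs, against a median of 7 over 32851 windows of that length. Windows with at least 18 make up 29.7% of all windows, so the difference in CG is a description of the pair only. Of 10 other neuronal calcium sensor genes, 9 were detected, 4 were tested and 0 passed the exact binomial test, and Ncald was the highest, with 58.7 CPM in replicate 1 and 77.1 CPM in replicate 2.

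Wnt4 (chr4:137277489-137299726, plus strand) encodes a secreted ligand required for the identity of the zona glomerulosa. Its single annotated transcript of 5 exons took 687 reads in replicate 1 and 229 in replicate 2, or 91.5% (89.2 to 93.4) and 87.7% (83.1 to 91.5). The share did not pass Fisher's exact test (adjusted p = 0.515). On Wnt4-201 alone the log2 ratio was 0.91 (adjusted exact binomial p = 5.24e-16), against 0.96 over all its models.

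A small part of Wnt4 reads used acceptors inside exon 3, 39 and 42 bases into the exon. Of reads spliced from exon 2 into exon 3, 10 of 710 in replicate 1 (1.41%, 0.677 to 2.57) and 3 of 238 in replicate 2 (1.26%, 0.261 to 3.64) used the acceptor after base 42. The acceptor after base 39 was used by 4 of 710 in replicate 1 (0.563%, 0.154 to 1.44) and 0 of 238 in replicate 2, which allows up to 1.26%. Both offsets are multiples of 3, so exon 3 shortens from 132 to 93 or 90 bases in frame. Exon 3 was skipped by 2 reads in replicate 1 and 1 in replicate 2. Of new Wnt4 models, those ending at base 137296920 took 36 reads in replicate 1 and 18 in replicate 2. The 20 bases after that end hold 18 A, as do those after base 137297611 with 12 and 2 reads.

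Of 41 genes of the Wnt pathway, 31 were tested, of which 0 were higher in replicate 1, 4 were higher in replicate 2 and 27 did not pass, with a median log2 ratio of -0.18. Among all tested genes 6.21% passed as higher in replicate 1, 6.2% as higher in replicate 2 and 12.4% in either direction, so these counts are near the background. None of the 4 passed in edgeR's exact test (adjusted p from 0.908 to 1). Lgr4, an R-spondin receptor gene, had 78.6 CPM in replicate 1 and 173 CPM in replicate 2, a ratio of 0.463. Dvl1, which relays the receptor signal, had a ratio of 0.648, the scaffold gene Axin1 0.688 and the receptor gene Fzd7 0.208. Ctnnb1, which encodes beta-catenin, had 214 CPM in replicate 1 and 248 CPM in replicate 2 and did not pass.

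Shh (chr5:28456815-28467256, minus strand) had 2 complete Shh-201 reads in each library, among 6 reads in replicate 1 and 4 in replicate 2. Among 19 genes of the hedgehog pathway, 9 were tested, 0 were higher in replicate 1, 1 was higher in replicate 2 and 8 did not pass, which is near the background of 12.4%. That one was Smo, the signal transducer, with 59.5 CPM in replicate 1 and 106 CPM in replicate 2, a ratio of 0.574 (adjusted p = 1 in edgeR's exact test). Gas1, a co-receptor gene, was the highest, with 161 CPM in replicate 1 and 128 CPM in replicate 2, and the target gene Ptch1 had 26.9 and 19.3 CPM. Ihh and Gli2 had 0 reads in both libraries.

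Dab2 (chr15:6299788-6440712, plus strand) encodes a clathrin adaptor that marks the glomerulosa in mice. It was read mostly in pieces, and models with a complete coding sequence took 19 of 112 reads in replicate 1 (17.0%, 10.5 to 25.2) and 15 of 82 in replicate 2 (18.3%, 10.6 to 28.4). The deepest single model, the last 4 exons, took 42 reads in replicate 1 and 17 in replicate 2, or 37.5% and 20.7% (adjusted Fisher's exact p = 0.234). The annotation gives 6 separate first exons, and 34 reads in replicate 1 and 39 in replicate 2 began in the first exon at chr15:6386598-6386932. At the upstream start (chr15:6299788-6299899) 0 reads began, which allows up to 8.82% and 7.69% of those totals, and 0 began at the other annotated first exons.

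Many 5′ Dab2 molecules ended before the last exon. Of the reads that began in the first exon, 19 of 34 in replicate 1 (55.9%, 37.9 to 72.8) and 27 of 39 in replicate 2 (69.2%, 52.4 to 83.0) ended in intron 9 of Dab2-202, and 12 and 11 reached the last exon. Base 6427765 in that intron is the annotated end of the coding transcripts Dab2-208 and Dab2-209, and from any start it was the end of 19 reads of new models in replicate 1 and 28 in replicate 2. Dab2-208 itself took 2 reads in replicate 1 and 1 in replicate 2. Splicing from exon 9 to annotated acceptors inside intron 9 was in 6 and 2 reads in replicate 1, and in 3 and 1 in replicate 2. Most reads that ended in intron 9 thus lacked such a junction. Whether they retained intron sequence was not tested. Exon 10, of 654 bases, is the exon by which known Dab2 isoforms differ. It was included in 9 reads and skipped in 5 in replicate 1, and included in 6 and skipped in 5 in replicate 2, so 35.7% (12.8 to 64.9) and 45.5% (16.7 to 76.6) of informative reads skipped it. The junctions that mark each choice are shown, 20 bases on each side from GENCODE M21, with the downstream exon in capitals (exon 9 chr15:6424635-6424697, exon 10 chr15:6429296-6429949, exon 11 chr15:6430954-6431107).
Dab2 exon 9 to exon 10: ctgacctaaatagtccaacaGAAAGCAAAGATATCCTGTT
Dab2 exon 10 to exon 11: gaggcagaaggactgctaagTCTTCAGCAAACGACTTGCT
Dab2 exon 9 to exon 11: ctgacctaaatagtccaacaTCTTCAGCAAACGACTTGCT

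The junction of exon 9 to exon 10 was in 8 reads in replicate 1 and 7 in replicate 2, and that of exon 10 to exon 11 in 10 and 9. The junction of exon 9 to exon 11 was in 4 reads in replicate 1 and 3 in replicate 2. The other skipping reads joined exon 8 to exon 11 in 1 and 2 reads. Exon 9 was also spliced to annotated acceptors inside intron 9, of which the most used had 6 reads in replicate 1 and 3 in replicate 2. At this depth the share of exon 10 skipping could not be told apart between the libraries, since each interval spans the other value.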

How the data were processed

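The authors deposited, per the file headers, counts of long reads per transcript model on mm10 with GENCODE M21, with field names of the TALON program and no normalization. The aligner, program version, read filters and use of strand are not given in the sources used here. A gene's count is the sum over its transcript models, and ERCC reads were left out. Depth was 1478362 reads in replicate 1 and 1007541 in replicate 2. Library sizes were scaled by TMM in edgeR 4.0.16 (factors 0.989 and 1.01). Tests were an exact binomial test over genes with at least 10 reads and Fisher's exact test of the main isoform's share over genes read at least 20 times in both libraries, at an adjusted p of 0.05 (scipy 1.17.1). New splice chains were matched between libraries by their introns, and new single-exon models of a gene were pooled as 1 isoform. Both tests were checked on simulated data. Log2 list medians use a prior count of 0.5. Intervals are exact at 95%, and the limit for a count of 0 is 3 reads; both cover counting error only. The reference transcript of a gene is its coding transcript with the most annotated reads. For Cacna1h no coding transcript had any, and the longest, Cacna1h-205, was used. Coding sequences came from GENCODE M21, promoter windows, found for 5 of the 10 genes, from RefSeq (GRCm38.p6), and identities from Biopython 1.88. DESeq2 1.42.0 size factors were an alternative. The 10 genes and all lists were chosen with earlier results of these data known. All 10 genes are named whatever their values, with up to 4 genes per list by mean CPM and any list gene past the binomial test. Of the genes and sequences these rules give, 1 list gene and 1 sequence are not reported here.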

Additional observations from a re-analysis of the deposited data

How the results depend on the processing

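With ERCC spike-in totals as scaling, 2471 genes and 2 of the 10 genes described passed the binomial test, against 1373 and 1, and Kcnk3 stood at a log2 ratio of 0.32 against -0.0030; the median of all genes moved by 0.33. In edgeR's exact test, 27 genes and 0 of the 10 passed. DESeq2 size factors, total counts, other read minimums, annotated transcripts alone and the removal of genomic-class models each kept the counts of calls within 1.5 times, and Wnt4 was called under each. Among genes not called, the fold ratio moved by over 1.5 times without genomic-class models for Kcnk9 (log2 0.40 against -1.89) and Agtr1a (log2 0.71 against 0.08). On annotated transcripts alone it did so for Shh (log2 -0.67 against 0.02). In replicates 1 and 2, the new values rest on 2 and 1 reads for Kcnk9 and 2 and 2 for Shh. That of Agtr1a rests on 47 and 19 reads, as its genomic-class reads were in replicate 2 only. Shifts somewhat under 1.5 times were seen on annotated transcripts alone for Cacna1h (log2 0.79 against 0.24) and Dab2 (log2 -0.67 against -0.12). Fisher's exact test called 149 genes and 1 of the 10. It called 53 and 0 without incomplete splice matches and genomic-class models, 12 and 0 on annotated transcripts alone, and 340 genes with single-exon models kept apart by exact coordinates; fewer genes and reads enter the first pair of settings. The share of reads on annotated transcripts, 60.5%, was 79.6% without genomic-class models and between 55.0% and 65.9% with either replicate left out. No test between libraries exists with a replicate left out. No paired analysis was possible because 1 group of 2 libraries gives no pair. Depth limits Kcnk9, Shh, Agtr1b and Kcnj5, with at most 14 reads each over both libraries, and every isoform with under about 10 reads.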

Other observations

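Models of the opposite strand lay over other genes of the group as well. For Dab2, 16 reads in replicate 1 and 15 in replicate 2 were assigned to new models on the opposite strand of its reference exons, equal to 14.3% and 18.3% of its own reads. For Wnt4 these were 6 and 7 reads, or 0.799% and 2.68%. Gm9899, which is annotated head to head with Kcnk3 on the opposite strand, had 5 reads in replicate 1 and 10 in replicate 2.

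The hexamer AATAAA, a common polyadenylation signal, was looked for on the transcript strand in the 50 bases before model ends. It is present before 55.0% of the 40149 annotated coding transcript ends with a 3′ UTR of at least 50 bases. It was present before the annotated ends of Kcnk3, Agtr1a, Dab2, Cacna1h and Shh used by new models, and not in these letters before the Wnt4 end. Of the ends inside the last exons of the reference transcripts, it was present before base 6439628 of Dab2, the annotated end of Dab2-203, where new models took 61 reads in replicate 1 and 3 in replicate 2, and before base 72506981 of Kcnk9. It was not present before the inner ends of Kcnk3 or Wnt4. At base 6440705, the annotated end of Dab2-202, new models took 17 reads in replicate 1 and 35 in replicate 2. All of these are ends given to models, and 1 model can carry many reads. The contrast between the Dab2 ends was not tested.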
